A study of Mus musculus with 1016 samples.

Results

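The major histone gene cluster of the mouse was followed through S phase in single cells of preimplantation embryos. Its members were the genes with the symbol prefix Hist1h within the 2 Mb of chromosome 13 that begin at position 21700001 (GRCm38), which gave 44 of the 51229 genes annotated on chromosomes 1 to 19. Of these, 43 encode histones and 1, Hist1h2aj, is a pseudogene. The genes fell into 2 blocks, parted by the only gap of more than 300 kb. Block 1 ran from Hist1h2bl to Hist1h2bj (chr13:21715763-22043676) and held 24 genes, namely 1 H1, 8 H2A, 8 H2B, 2 H3 and 5 H4 genes. Block 2 ran from Hist1h4h to Hist1h4c (chr13:23531050-23698454) and held 20 genes, namely 3 H1, 4 H2A, 5 H2B, 4 H3 and 4 H4 genes. The 1487 kb between the blocks held 70 annotated genes and pseudogenes of the Vmn1r family. With 1 Mb on either side, the cluster covered 80 of the 49264 bins of 50 kb, and 8 of these bins overlapped a member. A further 11 Hist1h genes lay just past the end of the interval, from chr13:23738808 to chr13:23934851.

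Replication-dependent histone genes encode the linker histone H1 and the core histones H2A, H2B, H3 and H4 that package newly made DNA. They are transcribed during S phase, when chromatin is duplicated, and their transcripts end in a stem-loop in place of a poly(A) tail. Many of them lie as divergent H2A and H2B pairs that share a promoter, and the nuclear histone locus body gathers around them. Vmn1r genes encode type 1 vomeronasal receptors, pheromone receptors of sensory neurons of the vomeronasal organ, and form large tandem arrays. Replication timing (RT) is the order in which regions are copied within S phase, and in single-cell Repli-seq it is read from the DNA copy number of each bin.

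The deposited tables gave for each cell and bin a state of 1 (replicated) or 0 (not replicated). The share of a cell's bins in state 1 is its replication score, in percent, and marks how far the cell had gone through S phase. There were 733 cells with a state table, of which 661 had a score of 10 to 90 and were not listed as failed by the authors' quality filter. The list gave 442 of them as passed. The other 219 were not on it, namely all treated 2-cell embryos, the paternal pronuclei and 37 of the 70 ICM cells. In 3 of them chromosome 13 carried no calls, which left 658 cells. The stages were zygotes (53 cells, 20 to 26 h after hCG), 2-cell (54 cells, 32 to 40 h), 4-cell (50 cells, 50 to 56 h), 8-cell (48 cells, 66 to 72 h) and 16-cell embryos (34 cells, 77 to 80 h), morulae (44 cells, 90 to 96 h) and the inner cell mass (ICM) of blastocysts (70 cells, 96 to 104 h). All of these came from F1 mothers (C57BL/6J x CBA) and DBA/2J fathers and had no treatment. Zygotes made by in vitro fertilisation (IVF zygotes) had the same genotype (56 cells, from 5.5 h after insemination), and parthenotes, which carry no paternal genome, were (C57BL/6J x CBA)F1 (47 cells, 5.5 to 12 h after activation). Isolated maternal pronuclei, (C57BL/6J x CBA)F1, numbered 20 and paternal pronuclei, DBA/2J, numbered 17. They were taken from zygotes at 21 to 25 h, and both pronuclei of a zygote could be included. The other 3 groups were 2-cell embryos of the same cross as the untreated ones that had received alpha-amanitin (42 cells, 34 to 39 h), an inhibitor of RNA polymerase II, or DRB (67 cells, 34 to 40 h), an inhibitor of transcript elongation, or had been injected with Kdm5b mRNA (56 cells, 34 to 40 h), which encodes a demethylase of H3K4. The median replication score of the 14 groups ranged from 40.2 (4-cell) to 63.1 (paternal pronuclei). The labels tie no cell to an embryo, litter or culture, so a group is 1 sample, no test was made between groups, and the exact Clopper-Pearson intervals given as 95% intervals cover counting error only.

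Promoters of 4 genes are shown because the blocks and the region between them replicated at different times, and the sequences let the members be set beside a gene of that region. They are the first gene of block 1, the linker gene of block 1, the first gene of block 2 and the Vmn1r gene nearest the middle of the region between. Each run is the 250 bases before the RefSeq start (GRCm38.p6), 5′ to 3′ on the strand of the gene, and capitals mark CCAAT and TATAAA on either strand. They lie at chr13:21716184-21716433 (minus strand), chr13:21780626-21780875 (minus), chr13:23530794-23531043 (plus) and chr13:22806519-22806768 (minus).
Hist1h2bl: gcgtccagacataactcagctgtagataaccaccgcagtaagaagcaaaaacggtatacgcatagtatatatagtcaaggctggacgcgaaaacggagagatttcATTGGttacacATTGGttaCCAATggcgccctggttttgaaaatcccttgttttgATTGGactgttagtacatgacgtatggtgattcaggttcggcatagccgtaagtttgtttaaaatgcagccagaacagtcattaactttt
Hist1h1b: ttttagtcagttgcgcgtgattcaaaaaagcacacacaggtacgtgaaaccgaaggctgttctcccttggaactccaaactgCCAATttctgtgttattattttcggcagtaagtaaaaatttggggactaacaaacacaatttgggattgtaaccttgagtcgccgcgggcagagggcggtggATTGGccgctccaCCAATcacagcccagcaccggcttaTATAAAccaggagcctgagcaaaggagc
Hist1h4h: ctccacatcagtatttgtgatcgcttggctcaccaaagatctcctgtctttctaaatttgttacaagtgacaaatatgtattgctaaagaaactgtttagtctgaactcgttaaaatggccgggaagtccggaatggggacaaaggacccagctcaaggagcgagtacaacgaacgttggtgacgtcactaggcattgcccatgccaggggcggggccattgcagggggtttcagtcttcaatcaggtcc
Vmn1r209: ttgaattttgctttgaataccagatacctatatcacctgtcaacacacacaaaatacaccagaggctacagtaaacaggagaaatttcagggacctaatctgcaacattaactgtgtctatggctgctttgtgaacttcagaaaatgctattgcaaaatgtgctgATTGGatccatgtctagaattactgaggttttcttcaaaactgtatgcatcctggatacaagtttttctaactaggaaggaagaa

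The promoter of Hist1h2bl, an H2B gene, held 4 copies of CCAAT and no TATAAA. That of Hist1h1b, an H1 gene, held 3 copies of CCAAT, and its TATAAA began 28 bases before the start. The H4 gene Hist1h4h held neither motif in this window, and Vmn1r209 held 1 CCAAT. RefSeq promoters were matched for 40 of the 44 members. CCAAT was found in 33 of them (82.5%) and in 33.8% of all 32851 promoters, TATAAA in 20 (50%) and in 12.4% of all, and the octamer ATTTGCAT in 7 (17.5%) and in 1.60% of all, each counted on both strands. CCAAT was present in every matched H1, H2A, H2B and H3 promoter (4, 10, 12 and 5 genes) and in 2 of 9 H4 promoters. The octamer was present in 3 of 10 H2A and 4 of 12 H2B promoters and in none of the H1, H3 and H4 promoters. Divergent pairs share bases, so these genes are not independent counts. Of the 34 Vmn1r genes with a matched promoter, 12 held CCAAT (35.3%), 6 TATAAA (17.6%) and 3 the octamer (8.82%). The motifs are letters in a window and no binding was measured.

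Across the cluster the share of replicated cells formed a valley, and the histone genes lay on both of its slopes. Over all 658 cells, 64.3% had replicated the bin of Hist1h2bl at the outer end of block 1 and 45.1% the bin of Hist1h2bj at its inner end. The share fell further over the Vmn1r genes and rose again to 55.8% at Hist1h4h, the inner end of block 2, and to 67.5% at Hist1h4c, its outer end. In the lowest bin between the blocks, 7.55% of zygotes, 1.85% of 2-cell, 4.00% of 4-cell, 18.8% of 8-cell and 8.82% of 16-cell embryo cells had replicated. In morulae it was 25.0% and in the ICM 21.4%. The lowest bin fell between the blocks in each of the 14 groups. States were smoothed by the authors, and the shortest run of 1 state on chromosome 13 was 5 bins (250 kb) with a median of 25 bins (1250 kb), so a step at a single gene was not resolvable. Members in 1 bin also share 1 value. The authors divided each bin by its mean over the cells of a stage. This acts on contrasts between bins of a group as well as on those between stages, so both comparisons carry that limit.

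**Figure D1:**
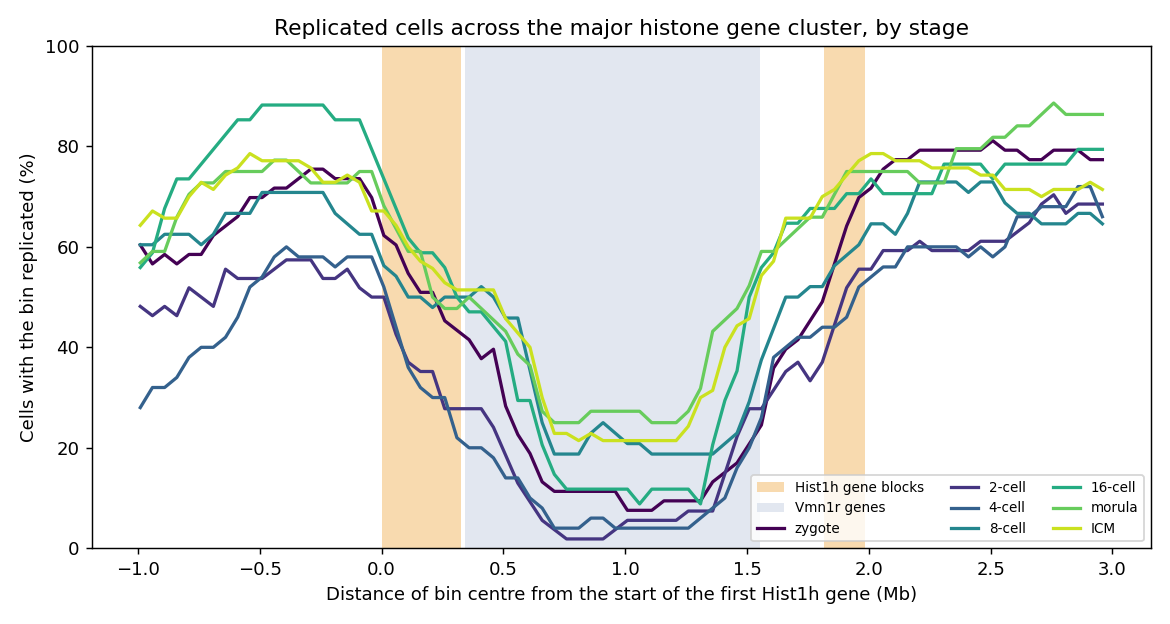
Share of cells (%) with each 50 kb bin replicated, plotted against the distance in Mb of the bin centre from the start of Hist1h2bl, with 1 line for each of the 7 stages. Orange bands are the 2 Hist1h blocks and the grey-blue band the Vmn1r genes. All 7 lines fall across block 1, are lowest over the Vmn1r genes (1.85% in 2-cell embryos, 25.0% in morulae) and rise across block 2.

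The outermost bin of block 1 held 6 members, among them the H2B gene Hist1h2bl, the H2A gene Hist1h2ai, the H3 gene Hist1h3h and the H4 gene Hist1h4j. It was replicated in 62.3% of zygotes, 50% of 2-cell (95% interval 36.1 to 63.9), 52% of 4-cell, 56.2% of 8-cell and 73.5% of 16-cell embryo cells, 68.2% of morula cells (52.4 to 81.4) and 67.1% of ICM cells. The next bin, with 7 members including Hist1h1b, the linker histone gene of block 1, was replicated in 60.4%, 42.6%, 44%, 54.2%, 67.6%, 63.6% and 64.3% of cells in the same order of stages. The innermost bin held the H2A genes Hist1h2ah and Hist1h2ag, the H2B genes Hist1h2bk and Hist1h2bj and the H4 gene Hist1h4i. Its shares were the lowest of all members, at 43.4%, 27.8% (16.5 to 41.6), 22%, 50%, 50%, 47.7% (32.5 to 63.3) and 51.4%. The fall from the outermost to the innermost bin was 30 percentage points in 4-cell embryos, 22.2 in 2-cell embryos, 20.5 in morulae and 6.25 in 8-cell embryos. The share at the inner end was below that at the outer end in each of the 14 groups.

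Block 2 ran the other way. Its innermost bin, with Hist1h4h (H4), Hist1h2af (H2A), Hist1h3g (H3) and Hist1h2bh (H2B), was replicated in 49.1% of zygotes, 37.0% of 2-cell, 44% of 4-cell, 52.1% of 8-cell and 67.6% of 16-cell embryo cells, 65.9% of morula cells and 70% of ICM cells. The outermost bin held Hist1h2ac (H2A), Hist1h2bc (H2B), Hist1h4c (H4) and Hist1h1t, a linker histone gene of the male germ line. Its shares, 69.8%, 55.6%, 52%, 60.4%, 70.6%, 75% and 77.1%, were the highest of the members over all cells. The linker genes Hist1h1d and Hist1h1e lay between these bins. Hist1h1d was at 56.6%, 44.4%, 44%, 56.2%, 67.6%, 70.5% and 71.4%, and Hist1h1e at 64.2%, 51.9%, 46%, 58.3%, 70.6%, 75% and 74.3%. The rise across block 2 ranged from 2.94 points in 16-cell embryos to 25.0 points in maternal pronuclei. In 2-cell embryos the 4 linker genes of the interval ran from 42.6% at Hist1h1b to 55.6% at Hist1h1t. Beyond the interval, the 11 further Hist1h genes, such as Hist1h1c (H1) and Hist1h1a (H1), stood at the top of that slope, with Hist1h1a at 75.5% in zygotes, 59.3% in 2-cell embryos and 78.6% in the ICM.

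A block was counted as replicated in a cell when at least 50% of its called bins with a member were in state 1, and the region between by the same rule. Block 1 was replicated in 60.4% of zygotes (46 to 73.5), 44.4% of 2-cell (30.9 to 58.6), 44% of 4-cell (30 to 58.7), 54.2% of 8-cell (39.2 to 68.6) and 67.6% of 16-cell embryo cells (49.5 to 82.6), 63.6% of morula cells (47.8 to 77.6) and 64.3% of ICM cells (51.9 to 75.4). Block 2 stood at 64.2%, 51.9%, 46%, 58.3%, 70.6%, 75% and 74.3%. The region between was replicated in 11.3% of zygotes (4.27 to 23), 5.56% of 2-cell (1.16 to 15.4), 6.00% of 4-cell (1.25 to 16.5), 18.8% of 8-cell (8.95 to 32.6) and 20.6% of 16-cell embryo cells (8.70 to 37.9), 29.5% of morula cells (16.8 to 45.2) and 24.3% of ICM cells (14.8 to 36). In each of the 7 stages the interval of the region between lay below those of both blocks, while the intervals of the blocks overlapped each other.

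**Figure D2:**
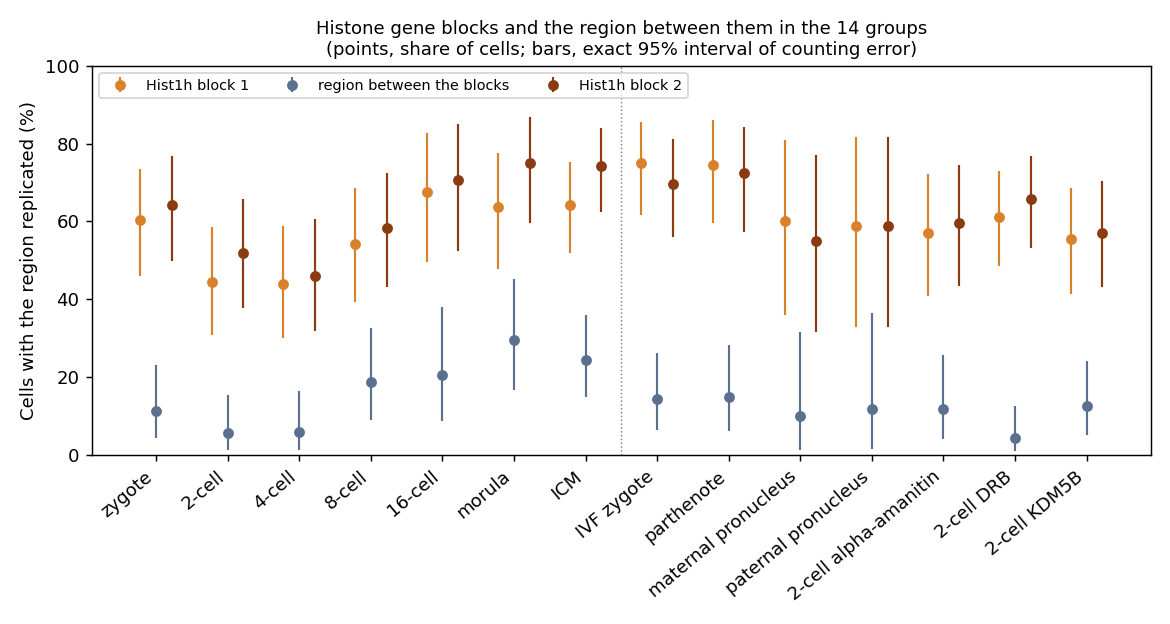
Share of cells (%) with block 1, block 2 and the region between them replicated in the 14 groups. Points are shares of cells and bars are exact 95% intervals for counting error, and the dotted line parts the 7 stages from the other 7 groups. The region between lies below both blocks in every group, at 4.48% in DRB-treated 2-cell embryos and 29.5% in morulae.

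Shares depend on how far through S phase the cells of a group were, so the zones were also ranked among all bins of the same group. The mean share over block 1 was at or above that of 40.3% of all bins in zygotes, 26% in 2-cell, 56.1% in 4-cell, 48.7% in 8-cell and 49.6% in 16-cell embryos, 44.5% in morulae and 55.5% in the ICM. Block 2 ranked at 47.3%, 41.5%, 67.8%, 57.3%, 57.1%, 58.1% and 88.4%. The region between ranked among the latest bins in zygotes, 2-cell and 4-cell embryos, at 3.59%, 2.19% and 4.29%. From the 8-cell stage on its mean share ranked higher. The rank was 16.9% in 8-cell and 21% in 16-cell embryos, 28.9% in morulae and 16.2% in the ICM. That mean covers 29 bins, among them those beside the blocks. The 19 of them that were among the latest 5% of all bins in 2-cell embryos ranked lower. The median rank of these 19 was 7.14% in 8-cell and 4.51% in 16-cell embryos, 21.9% in morulae and 4.73% in the ICM. In 2-cell embryos it was 0.77%, so the median rank of these bins was also higher from the 8-cell stage on, though below that of the mean. They were picked as the latest by their 2-cell values, which favours a lower rank than that of the whole region. The blocks thus ranked between 26% and 67.8% of the genome, apart from block 2 in the ICM, and above the region between in all 7 stages.

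Some collections differed within a stage. In 16-cell embryos block 2 was replicated in 0 of the 5 cells of 77 h, which allows a share of up to 52.2% by the exact interval, and in 24 of the 29 cells of 80 h. Block 1 was replicated in 3 of 5 and 20 of 29. The median replication score of these cells was 34.9 and 65.3. In 8-cell embryos of 72 h the counts were 6 of 11 for block 1 and 4 of 11 for block 2. ICM cells of 96 to 100 h had block 1 replicated in 26 of 33 and block 2 in 28 of 33, and those collected later in 19 of 37 and 24 of 37, with median scores of 60.3 and 46.7. The earlier ICM cells are the 33 that the authors' list gave as passed, and the later ones are the 37 not on it. The rank of the region between was 21.34% in 8-cell embryos without 72 h, 24% in 16-cell embryos without 77 h, and 20.5% and 12.8% in the earlier and the later ICM cells. Whether the score or the collection set these differences was not tested.

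Within single cells, the blocks were copied before the region between them in nearly all cells that told them apart. This comparison does not depend on the replication score of the cell. Over the 14 groups, 310 cells had replicated block 1 and not the region between, and 7 the reverse, so that block 1 was the one replicated in 97.8% (95.5 to 99.1) of the cells in which they differed. For block 2 the counts were 331 and 6, or 98.2% (96.2 to 99.3). Of all 658 cells, 141 had replicated neither block nor the region between, 94 only block 1, 115 only block 2, 216 both blocks and not the region between, and 80 both blocks and the region between. The remaining 12 cells (1.82%) had replicated the region between ahead of a block. The 2-cell embryos had no such fully replicated cell among 54, and morulae had 12 of 44.

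**Figure D3:**
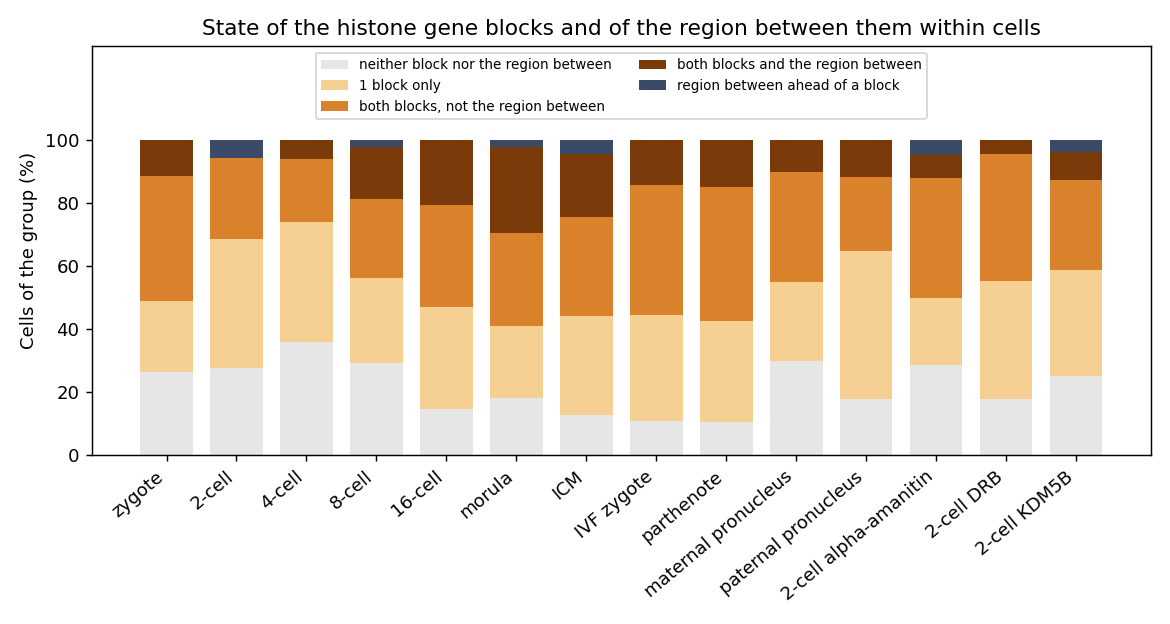
Share of the cells of each group (%, stacked bars) by the joint state of block 1, the region between and block 2. The blue segment, cells with the region between replicated ahead of a block, is 5.56% in 2-cell embryos and 1.82% over all groups.

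The blocks did not always share a state. They agreed in 438 of 658 cells (66.6%), with 99 cells that had replicated only block 1 of the pair and 121 only block 2, counting also cells with the region between replicated. By group the agreement ranged from 52.9% in paternal pronuclei to 77.4% in zygotes. Block 1 shared the state of its own upstream 1 Mb in 80.1% of cells, and block 2 that of its downstream 1 Mb in 80.1%. Where these differed, the flank was ahead of block 1 in 105 cells and behind it in 26, and ahead of block 2 in 100 and behind it in 31. The order flank, block, region between was the more frequent on both sides.

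The edge of the unreplicated stretch fell inside a histone block in some cells, and in the region between in more. The bin in the middle of the region between was unreplicated in 584 cells, and an upstream edge of the stretch around it was seen in the window in 478. That edge lay upstream of block 1 in 106 cells, within it in 135 and past it, towards the Vmn1r genes, in 237. The downstream edge, seen in 500 cells, lay before block 2 in 298, within it in 79 and past it in 123. These counts were not scaled to the length of the blocks. In the 429 cells with both edges the stretch had a median length of 1350 kb (quartiles 1000 and 1750). The median was longest in paternal pronuclei (1800 kb, 13 cells), Kdm5b-injected 2-cell embryos (1700 kb, 37 cells) and 4-cell embryos (1625 kb, 28 cells). It was shortest in alpha-amanitin-treated 2-cell embryos (1050 kb, 27 cells). Stretches that ran past the window are left out, and the groups differed in replication score, so this order is only descriptive. The bins of block 1 differed in state within 153 of 658 cells (23.3%, 20.1 to 26.7), and in 139 of these the outermost bin was replicated and the innermost was not. Block 2 was split in 83 cells (12.6%, 10.2 to 15.4), in 80 of them with the outermost bin replicated and the innermost not.

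The shares were then taken by replication score. In cells of score 10 to under 40, over all groups, block 1 was replicated in 33.3% of 159 cells, block 2 in 37.7% and the region between in 3.77%. At scores of 40 to under 60 the values were 54.7%, 60.7% and 8.55% of 234 cells. At scores of 60 to 90 they were 80.8%, 81.1% and 24.9% of 265 cells. The flanks stood at 87.9% upstream and 92.5% downstream by then. The blocks thus lay between the flanks and the region between in each range of score.

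**Figure D4:**
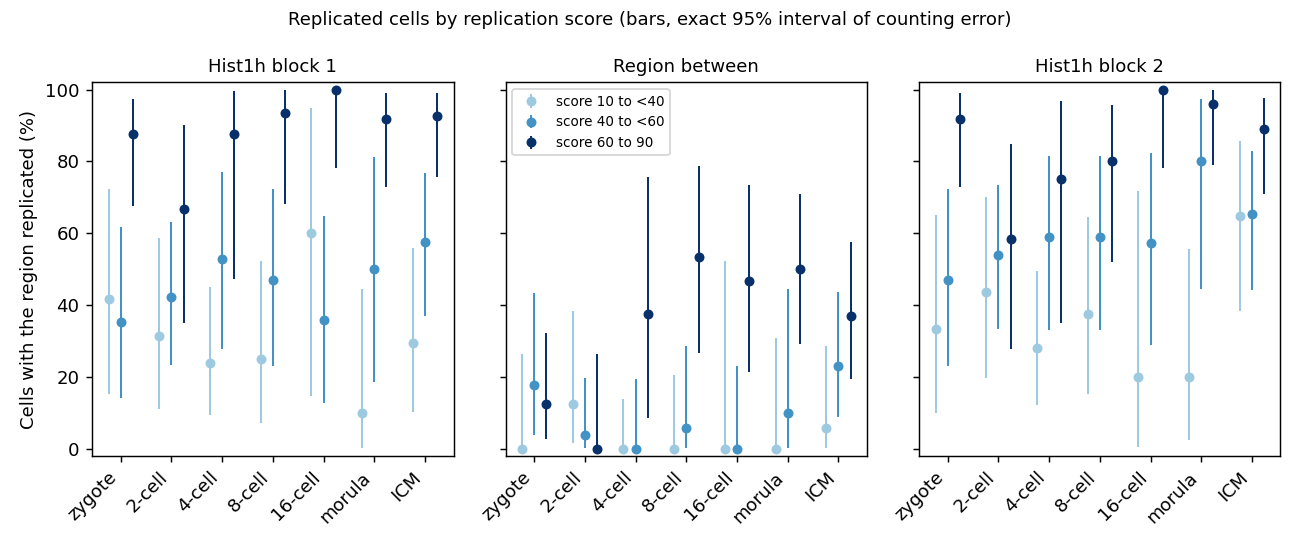
Share of cells (%) with block 1, the region between and block 2 replicated in each stage, split by replication score (10 to under 40, 40 to under 60, 60 to 90). Bars are exact 95% intervals for counting error. At scores of 60 to 90 the region between was replicated in 0 of 12 2-cell, 12 of 24 morula and 8 of 15 8-cell embryo cells.

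In late S phase the stages differed most at the region between. At scores of 60 to 90 it was replicated in 3 of 24 zygotes (12.5%, 2.66 to 32.4), 0 of 12 2-cell embryo cells (exact interval up to 26.5%), 3 of 8 4-cell, 8 of 15 8-cell (53.3%, 26.6 to 78.7) and 7 of 15 16-cell embryo cells, 12 of 24 morula cells (50%, 29.1 to 70.9) and 10 of 27 ICM cells. Among the 7 stages, the interval of 2-cell embryos did not overlap those of morulae and 8-cell embryos, and all other pairs overlapped. The median score of these cells was 66.4 in 2-cell embryos, 71.5 in morulae and 73.7 in 8-cell embryos, so the matching of S phase was approximate. By the same scores block 1 was replicated in 21 of 24 zygotes, 8 of 12 2-cell, 7 of 8 4-cell, 14 of 15 8-cell and 15 of 15 16-cell embryo cells, 22 of 24 morula and 25 of 27 ICM cells. Block 2 was replicated in 22 of 24, 7 of 12 (58.3%), 6 of 8, 12 of 15, 15 of 15, 23 of 24 and 24 of 27 in the same order. The 2-cell embryos thus had the lowest share at both blocks as well. In early S phase, at scores of 10 to under 40, ICM cells had block 2 replicated in 11 of 17 and block 1 in 5 of 17, while morula cells had 2 of 10 and 1 of 10.

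Between neighbouring stages the interval of the difference included 0 for both blocks at every step. From zygotes to 2-cell embryos the median difference over the 8 bins with a member was −13.3 points, and over all bins it was −7.55 points. From 2-cell to 4-cell embryos it was −0.74 points, against −10.7 over all bins. From 4-cell to 8-cell embryos it was 11.2 points, and 1 of the 8 bins was earlier by 20 points or more, against 23.3% of all bins. Averaged over 16 overlapping intervals of score, it was 0 of 8, against 7.67% of all bins. This average weights S phase more evenly but does not match it between groups. From 8-cell to 16-cell embryos the median was 12 points, against 7.74 over all bins. From 16-cell embryos to morulae it was −2.01 points, against 0.13, and from morulae to the ICM 0.94 points, against −2.79. Over the whole span from 2-cell embryos to morulae the median was 21.5 points, and 5 of the 8 bins with a member were earlier by 20 points or more, a share to be read against 36.7% of all bins. In the region between, 24 of 29 bins passed that difference. By blocks, block 1 was 19.2 points higher in morulae than in 2-cell embryos (interval of the difference −0.60 to 36.9), block 2 was 23.1 points higher (3.88 to 39.8) and the region between 24 points higher (9.13 to 39.1). The median replication score was 50.4 in 2-cell embryos and 62.6 in morulae, and averaged over intervals of score the differences were smaller. The median was then 9.79 points over the gene bins and 4.83 over all bins, and 0 of the 8 gene bins were earlier by 20 points or more, against 24.1% of all bins. In the region between it was 1 of 29 bins, with a median of 13.4 points.

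The gain in rank of the region between was set beside that of other late bins. In 2-cell embryos 19 of its 29 bins were among the latest 5% of all bins, a choice that uses the 2-cell values. Their median rank was 0.68% in 4-cell, 7.14% in 8-cell and 4.51% in 16-cell embryos, 21.9% in morulae and 4.73% in the ICM. The 1929 other bins chosen in the same way had median ranks of 4.21%, 8.95%, 15.6%, 19% and 8.84%, with quartiles of 7.19% and 28.8% in morulae. In morulae the bins of the region between thus ranked within the quartiles of late bins elsewhere. In 4-cell, 8-cell and 16-cell embryos and the ICM their median rank was below that of the other bins. Bins picked as the latest at 1 stage tend to rank higher at any other. The comparison therefore cannot tell whether the gain was particular to the cluster.

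Zygotes of different origin shared the late region between the blocks. Block 1 was replicated in 60.4% of zygotes, 75% of IVF zygotes (61.6 to 85.6) and 74.5% of parthenotes (59.7 to 86.1), and block 2 in 64.2%, 69.6% and 72.3%. The differences of IVF zygotes and of parthenotes from zygotes at block 1 were 14.6 points (−2.87 to 31.1) and 14.1 points (−4.35 to 31), so counting error alone covers 0. Of the 8 gene bins 1 was earlier in IVF zygotes by 20 points or more, against 12.8% of all bins. Averaged over intervals of score it was 3 of 8, all in block 1, against 7% of all bins, with a median of 18.7 points over the gene bins and 1.64 over all bins. That average leans on few cells at low scores. Under a score of 40, block 1 was replicated in 6 of 6 IVF zygotes and 5 of 12 zygotes. The 3 bins also lie in 1 block of smoothed states, so they are not separate counts. In rank, block 1 stood at 40.3% of all bins in zygotes, 73.4% in IVF zygotes and 83.9% in parthenotes. The region between stayed late in each, at 3.59%, 3.93% and 3.14%. These comparisons share the zygote group. Maternal and paternal pronuclei had block 1 replicated in 12 of 20 and 10 of 17, block 2 in 11 of 20 and 10 of 17, and the region between in 2 of 20 and 2 of 17. The intervals of these differences spanned more than 40 points, so a difference between the parental genomes at the cluster was not detectable at this number of cells.

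Treated 2-cell embryos were set beside the untreated ones, which serve as control for all 3 treatments. With alpha-amanitin, block 1 was replicated in 57.1% (41 to 72.3) and block 2 in 59.5% of cells, against 44.4% and 51.9% in untreated embryos, which gave differences of 12.7 points (−7.22 to 31.2) and 7.67 points (−12.0 to 26.4). The median difference over the 8 gene bins was 14.8 points, against 1.85 over all bins. Of the 8 gene bins, 3 were earlier by 20 points or more with alpha-amanitin, against 5.78% of all bins. The bins of Hist1h2bq in block 1 and Hist1h4h in block 2 only just passed, at 57.1% against 37.0% without alpha-amanitin. Bins of 1 block hold smoothed states, so they are not separate counts. Averaged over intervals of score, 1 of 8 bins was earlier by 20 points or more, against 4.75% of all bins. The gradient across block 1 was 7.14 points with alpha-amanitin and 22.2 points without. With DRB the values were 61.2% and 65.7%, with differences of 16.7 points (−1.06 to 33.2) and 13.8 points (−3.65 to 30.4). The median difference over the gene bins was 18.5 points, against 9.65 over all bins. With DRB, 1 of the 8 bins was earlier by 20 points or more, against 13.8% of all bins. Averaged over intervals of score it was 0 of 8, against 4.53% of all bins. With Kdm5b mRNA block 1 was at 55.4% and block 2 at 57.1%. The region between stayed late in each treatment, at 11.9%, 4.48% and 12.5% of cells against 5.56%. In the hours shared with untreated embryos, block 1 was replicated in 14 of 26 cells with alpha-amanitin and 18 of 37 without, in 33 of 52 with DRB and 21 of 42 without, and in 18 of 35 with Kdm5b mRNA and 13 of 25 without. The median score was 53.3 against 49.2, 58.5 against 50.7 and 60.6 against 54.6 in these cells. At score 60 to 90 the region between was replicated in 1 of 32 cells with DRB, 2 of 13 with alpha-amanitin and 5 of 26 with Kdm5b mRNA.

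Other histone genes were set beside the members. The 43 protein-coding members had a median share of 42.6% in 2-cell embryos (range 27.8% to 55.6%), 65.9% in morulae and 67.1% in the ICM, beside medians over all protein-coding genes of 51.9%, 79.5% and 61.4%. The Hist2h genes, a smaller replication-dependent cluster on chromosome 3, all had a value and a median of 67.9% in 2-cell embryos, 75% in morulae and 64.3% in the ICM. The 2 Hist3h genes of chromosome 11 were at 36.1%, 63.6% and 38.6%, and Hist4h4 of chromosome 6 at 46.3%, 65.9% and 60%, and in 2-cell embryos both lay within the range of the members. Of 9 replication-independent histone genes, 4 were above the median gene in 2-cell embryos and 5 in morulae, with H3f3a, which encodes H3.3, at 63% and 93.2% and H1f0, a linker histone of non-dividing cells, at 24.1% and 75%. Of 24 genes of the histone locus body, histone mRNA processing and histone supply with a value, 12 were above the median gene in 2-cell embryos and 15 in morulae. Among them Npat, the coactivator of histone transcription, was at 65.7% and 90.9%, Slbp, which binds the stem-loop of histone mRNA, at 52.8% and 89.8%, Cdk2 at 61.1% and 95.5%, and Sympk, a scaffold of histone mRNA cleavage, at 29.6% and 64.8%. The 35 protein-coding Vmn1r genes between the blocks had a median of 7.41% in 2-cell embryos and 36.4% in morulae. Vmn1r genes elsewhere had medians of 22.2% (113 genes with a value) and 43.8% (96 genes), so late replication was not limited to the Vmn1r array beside the histone genes.

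The blocks also differed from the region between in base composition, which the choice of members did not use. CpG dinucleotides numbered 17.1 per kb in the median bin of block 1 and 13.5 in block 2, at or above 97.5% and 89.7% of all bins, and 5.80 per kb in the region between, at 28.3%. The median GC content was 43.4% in block 1, 41.7% in block 2 and 40.4% in the region between, beside 41.4% over all bins. Soft-masked repeats made up 25.9% of the median bin of block 1, 26% of block 2 and 43.4% of the region between, against 31.4% over all bins. The flanks, which were replicated in more cells than the blocks, held 7.27 CpG per kb upstream and 9.27 downstream, fewer than the blocks.

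**Figure D5:**
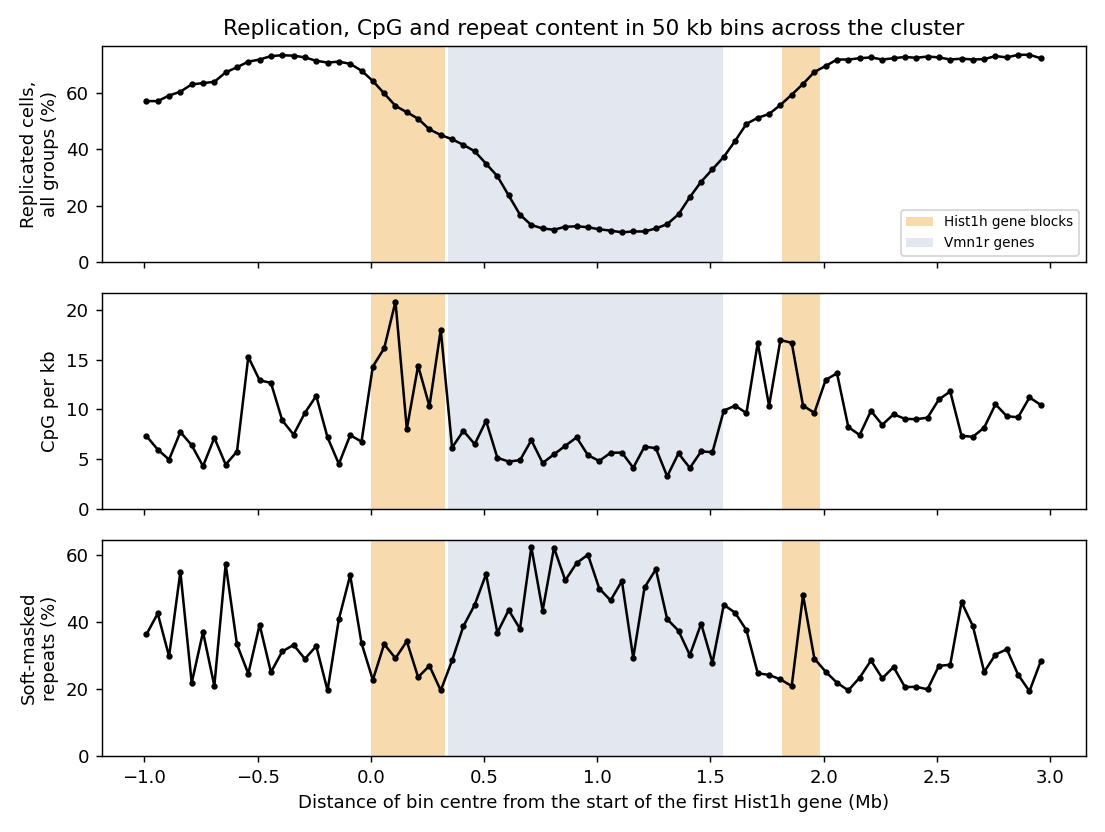
Share of cells of all groups with each bin replicated (%, top), CpG dinucleotides per kb (middle) and soft-masked repeat content (%, bottom) in 50 kb bins, plotted against the distance in Mb from the start of Hist1h2bl. Median CpG is higher in the bins with a member of the Hist1h blocks (orange, 17.1 and 13.5 per kb) than in the other zones. Single bins overlap, with as few as 9.66 per kb in block 2 and up to 16.7 in the region between. The repeat content is highest over the Vmn1r genes (grey-blue).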

How the data were processed

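DNA of single cells was sequenced and the authors mapped the reads to GRCm38 (mm10). Per the labels, the submitters' processing notes name Bowtie2 2.3.5, SAMtools 1.9 and bedtools 2.29.0. The authors counted reads in 50 kb bins, scaled them by depth, divided each bin by its mean over samples of the same stage, masked outlying bins, smoothed and segmented the profile and assigned each segment to a replicated or unreplicated state with a mixture model. The values deposited by the authors in 14 tables are these binary states, an other unit than counts, so the read depth behind a state is not in them. Dividing by the mean of a stage removes biases that all its cells share. It may also reduce differences in timing between bins that all its cells share. Segmentation hides steps within a run.

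Of 1016 labelled samples, 733 had a column in the tables and 283 were not analysed here. Cells with a replication score of 10 to 90 were kept unless the authors' quality list gave them as failed (661 kept, 53 left out). Of those kept, 442 were listed as passed and 219 were not on the list. All columns matched a labelled sample. Groups follow the labels. Shares were given with exact Clopper-Pearson 95% intervals (SciPy 1.17.1, Python 3.11.15) and differences with Newcombe intervals (statsmodels 0.14.6). Bins earlier by 20 percentage points or more between groups were counted beside the same count over all bins. Interval RT is the mean share over 16 overlapping intervals of score, 35 wide and 4.33 apart. An interval holds only the cells sampled in it. The lowest score was 11.8 in 8-cell embryos and 29.6 in IVF zygotes, so S phase is matched only in part. Promoters came from RefSeq (GRCm38.p6). The scripts were tested on simulated data. Alternatives covered the cells kept, the score range, the call of a block, its bins and the collection hours, and an end of block 2 past the interval and ranks without cells that stood apart were added after seeing the data. The members and lists were chosen with earlier results of these data known. Genes were named by position and role, namely the ends of each block, each linker histone gene, the first gene of each core type and the highest and lowest bins. Hist1h1c, Hist1h1a and the named genes of the other lists were chosen after their values were seen.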

Additional observations from a re-analysis of the deposited data

How the results depend on the processing

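Over all alternatives, 408 of the shares of the zones stayed within 1 counting interval of the value reported and 12 moved beyond it, as did 464 and 2 of the differences between groups. The 1 block difference of 20 points or more kept its sign, while 37 of the 466 alternative values, for 13 of the 28 differences, had the opposite sign, and those 13 differences were at most 12.3 points. With ICM cells of 96 to 100 h alone, which are those listed as passed, block 1 was at 78.8% against 64.3% and block 2 at 84.8% against 74.3%. Averaged over intervals of score, the region between was at 15.5% against 5.56% in 2-cell embryos, 20.5% against 6.00% in 4-cell embryos and 16.7% against 4.48% with DRB. As a mean over bins it was at 37.1% against 24.3% in the ICM and 19.7% against 4.48% with DRB. The cause was not tested, although a cell counts towards a mean over bins also when few of the bins are replicated. Leaving out 1 collection hour at a time gave 0 to 24.1% for the region between and 0 to 82.8% for block 2 in 16-cell embryos, where leaving out 80 h leaves 5 cells. It gave 51.4 to 78.8% for block 1 and 64.9 to 84.8% for block 2 in the ICM, and differences at block 2 of -58.3 to 24.4 points from 8-cell to 16-cell embryos (12.3 with all hours) and of -7.76 to 75 points from 16-cell embryos to morulae (4.41 with all hours). No paired analysis was possible because no result comes from a test and the numbers in the labels only number the cells. The number of cells, 17 to 70 a group, limits each share, and embryo, litter and culture are not separable from cell to cell.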
